A study of Mus musculus with 7 samples.

Results

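Ribosomal protein genes were examined as a constitutive set in the developing mouse gut, where their promoters would be open in every tissue if the name holds. The set comprised the protein-coding genes whose symbols begin with Rpl or Rps and a number, together with Rpsa, Rplp0, Rplp1 and Rplp2, and without the Rps6k kinases. It held 91 of 21519 protein-coding genes on chromosomes 1 to 19 and X. By symbol 31 encode small subunit proteins, 43 large subunit proteins and 3 the stalk (Rplp0, Rplp1, Rplp2). Another 12 are paralog copies of such genes, and 2 carry a matching symbol without being a subunit gene (Rps23rg1 and Rps19bp1, the second named as a binding protein). The 77 subunit and stalk genes are described separately from the copies below. The members lie on 19 chromosomes, 14 of them on chromosome 7, and are short: the median gene body was 3.17 kb, and over the whole set of protein-coding genes it was 17.4 kb.

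A cytoplasmic ribosome needs about equal amounts of each of its proteins, so every growing cell transcribes the whole family. The promoters of these genes are known for a sharply defined start, often within a pyrimidine stretch (the TOP motif) that lets mTOR signalling control translation of the mRNAs, and many carry binding sites of ETS family factors, YY1 or Sp1. Several of the genes also host small nucleolar RNAs (snoRNAs), the guides of ribosomal RNA modification, in their introns. Paralog copies differ from the parent genes: Rpl10l and Rpl39l are known from the testis and Rpl3l from skeletal muscle and heart.

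Open chromatin was measured by ATAC-seq, in which a transposase cuts accessible DNA. Each of 7 groups had 1 library. At embryonic day 13 (E13) these were whole stomach and whole intestine, and at day 16 (E16) they were forestomach, hindstomach, colon, proximal small intestine (called E16 intestine) and a stomach labelled as a Sox2 knockout (KO). Sox2 encodes a transcription factor of the foregut. Per the labels the embryos carried ShhCre and R26YFP/+, which marks cells with a history of Shh expression, an epithelial gene of the gut. E13 organs of a few pooled embryos were digested with trypsin and sorted for YFP. At E16, EDTA released the epithelium of hindstomach, intestine and colon, and dispase followed by collagenase that of forestomach. For the KO library the allele and the isolation were not given in the sources used here. Where values of the 7 libraries are listed without names, they run in 1 fixed order: E13 stomach, forestomach, hindstomach, KO stomach, E13 intestine, E16 intestine, colon.

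Each file lists peak positions only, so depth and peak height are unknown and the lists held between 81179 and 135743 peaks, the fewest in E13 intestine and the most in colon. With 1 library per group there is no replicate check, and no difference between libraries was tested. Shares carry 95% Wilson intervals, which cover counting error only. Of 15 pan-epithelial marker genes, 13 had a peak at a gene end in all 7 libraries. Mesenchyme markers with such a peak numbered between 2 of 14 in colon and 11 of 14 in KO stomach. Blood and immune markers ranged from 2 to 5 of 11, endothelial markers from 3 to 5 of 9, and neural crest and neuron markers from 3 of 10 in colon to 9 of 10 in KO stomach. Colon was thus lowest and KO stomach highest for mesenchyme and neural markers. The same held for gene-end peaks of the ribosomal protein genes below and of all protein-coding genes (54.9% and 69.0%). Pan-epithelial markers were also fewest in colon (13 of 15), and KO stomach had all 15, as did several other libraries. The blood and immune list and the endothelial list did not share both extremes. Colon had 3 of 11 blood and immune markers, and KO stomach had 4 of 9 endothelial markers. The part of other cell types in those counts was not tested. In a bulk library, a promoter open in fewer cells and one less accessible in each cell cannot be told apart.

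Sequences around the start are shown first for the genes on which the results turn. Each stretch has 100 bases before the start and 20 from the start on, 5′ to 3′ on the gene's strand, from the RefSeq promoter table of GRCm38.p6. Capitals mark CG dinucleotides, whose density differed between starts that were open and starts that were not. The first group had the start inside a peak in 6 or 7 libraries. Rplp0 (chr5:115559367-115559486, + strand) forms the base of the stalk, Rpsa (chr9:120127666-120127785, + strand) is a small subunit protein also described as a laminin receptor, Rps3 (chr7:99483690-99483809, - strand) lies at the mRNA entry of the small subunit, and Rpl39 (chrX:37085203-37085322, - strand) lines the exit tunnel of the large subunit.
Rplp0: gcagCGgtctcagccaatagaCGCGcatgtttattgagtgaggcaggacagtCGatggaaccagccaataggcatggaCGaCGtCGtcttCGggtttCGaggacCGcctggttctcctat
Rpsa: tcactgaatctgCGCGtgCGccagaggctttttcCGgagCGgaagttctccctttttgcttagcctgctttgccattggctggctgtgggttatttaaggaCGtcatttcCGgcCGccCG
Rps3: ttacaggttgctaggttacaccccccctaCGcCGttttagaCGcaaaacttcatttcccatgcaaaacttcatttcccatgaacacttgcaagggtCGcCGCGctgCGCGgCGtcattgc
Rpl39: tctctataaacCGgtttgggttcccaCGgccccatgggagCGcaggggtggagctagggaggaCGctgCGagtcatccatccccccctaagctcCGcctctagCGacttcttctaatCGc

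Rps2 (chr17:24719963-24720082, + strand) and Rpl22 show how the choice of start decided a call, and both were picked for this after their values were seen. Rpl22, a large subunit protein, has 2 annotated starts, an outer one (chr4:152324336-152324455, + strand) that was in no peak and an inner one (chr4:152325626-152325745, + strand) that was in a peak in all 7 libraries.
Rps2: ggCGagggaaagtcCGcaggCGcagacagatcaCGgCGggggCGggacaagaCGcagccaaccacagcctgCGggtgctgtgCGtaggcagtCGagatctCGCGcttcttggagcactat
Rpl22 outer: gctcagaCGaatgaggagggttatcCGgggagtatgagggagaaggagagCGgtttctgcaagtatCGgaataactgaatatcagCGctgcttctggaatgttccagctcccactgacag
Rpl22 inner: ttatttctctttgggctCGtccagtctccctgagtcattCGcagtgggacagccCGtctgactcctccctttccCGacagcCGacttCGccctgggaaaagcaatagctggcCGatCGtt

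The paralog copies differ among themselves. The start of Rpl22l1 (chr3:28805408-28805527, + strand), the copy of Rpl22, was in a peak in all 7 libraries, and its stretch has 15 CG dinucleotides. The starts of Rpl3l (chr17:24727726-24727845, + strand), Rpl39l (chr16:10170128-10170247, + strand) and Rpl10l (chr12:66284382-66284501, - strand) were in none, and theirs have 1, 11 and 5.
Rpl22l1: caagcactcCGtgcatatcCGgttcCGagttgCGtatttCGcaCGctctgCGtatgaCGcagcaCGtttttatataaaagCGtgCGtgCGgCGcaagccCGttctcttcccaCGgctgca
Rpl3l: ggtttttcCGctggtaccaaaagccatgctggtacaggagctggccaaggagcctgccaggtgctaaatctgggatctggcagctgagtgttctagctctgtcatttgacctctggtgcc
Rpl39l: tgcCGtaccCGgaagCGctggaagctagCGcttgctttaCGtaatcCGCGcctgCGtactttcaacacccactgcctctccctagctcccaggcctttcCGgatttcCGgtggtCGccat
Rpl10l: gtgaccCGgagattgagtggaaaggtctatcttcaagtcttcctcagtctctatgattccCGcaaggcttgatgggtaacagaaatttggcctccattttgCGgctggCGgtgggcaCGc

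Most ribosomal protein genes were open in every library, but not all of them. A gene-end peak, one that overlaps the 1 kb flanking an end of the gene body to either side, was present in all 7 libraries at 66 of 91 members (72.5%, 62.6 to 80.6), against 43.3% of all protein-coding genes. It was present in 1 to 6 libraries at 21 members (23.1%, all genes 34.9%). It was in none at 4 (4.4%, all genes 21.8%), namely Rps2, Rpl39l, Rpl31-ps12 and Rps27rt. The number of libraries was mostly high: 10 members had the peak in 6 libraries, 5 in 5, 0 in 4, 1 in 3, 1 in 2 and 4 in only 1. Among all protein-coding genes up to the length of the longest member (16.8 kb), 35.3% had a gene-end peak in all 7 libraries. That set is not matched to the members, whose median length was 3.17 kb, and the part of gene length was not tested.

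By library, 83 members had a gene-end peak in E13 stomach (all genes 65.6%), 80 in forestomach (57.9%), 81 in hindstomach (62.5%) and 85 in KO stomach (69.0%). The count was 80 in E13 intestine (62.7%), 75 in E16 intestine (56.0%) and 72 in colon (54.9%). As shares of the 91 members these run from 79.1% in colon to 93.4% in KO stomach. The order of the libraries was nearly that of all genes: KO and E13 stomach were highest and E16 intestine and colon lowest in both. Colon had the longest list of peaks and the lowest share at these genes.

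**Figure D1:**
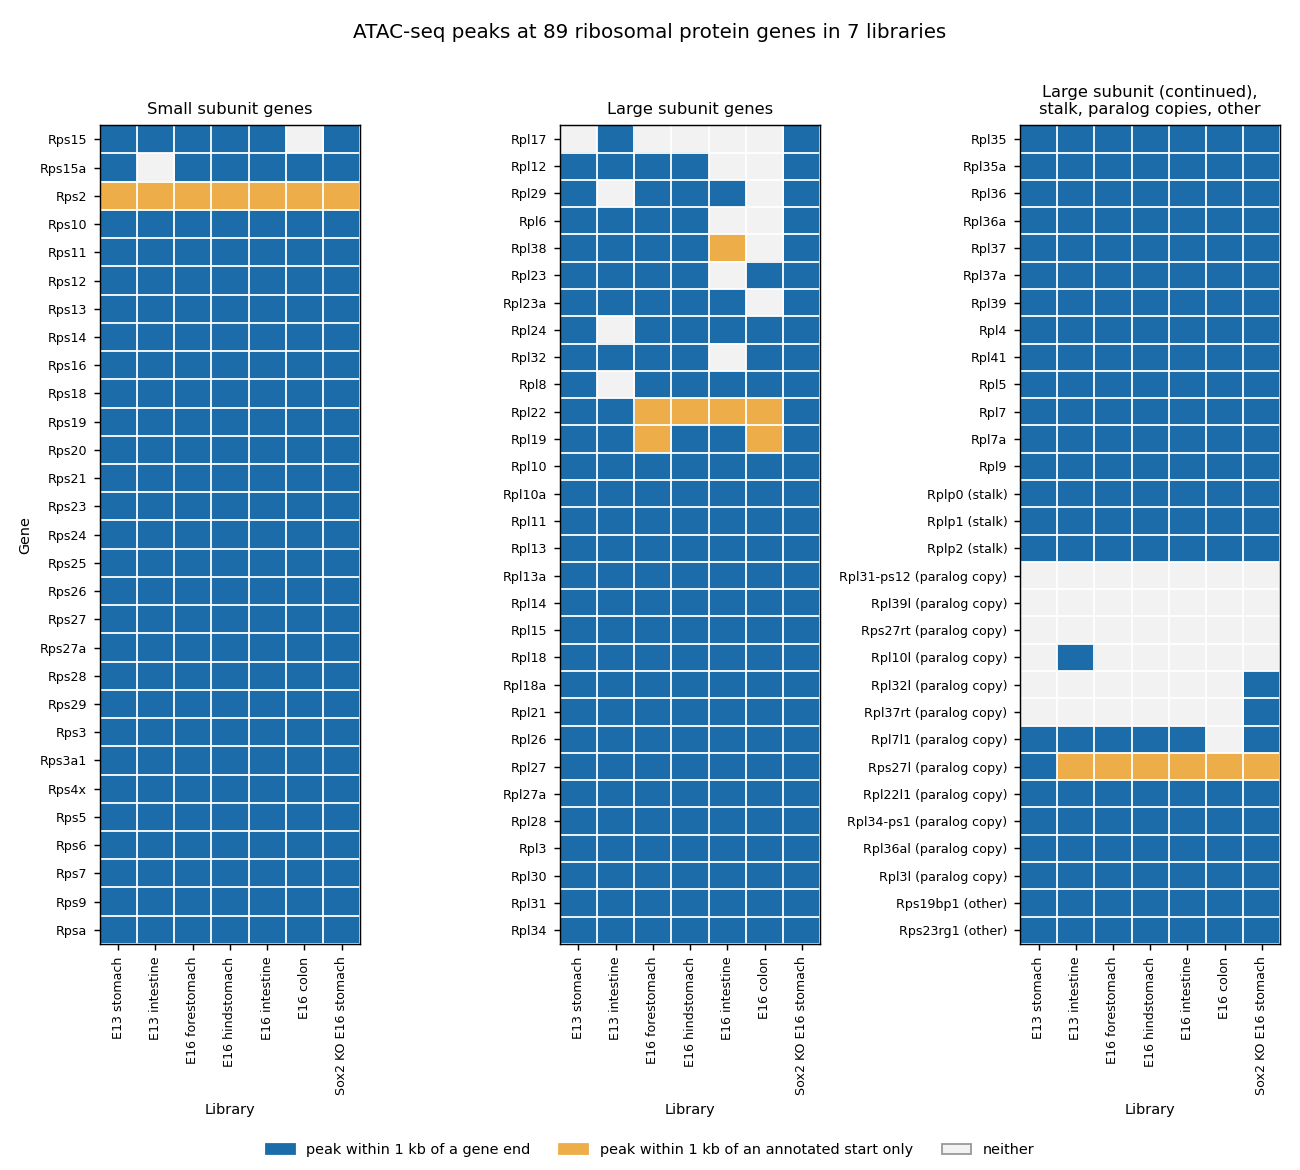
Presence of peaks at 89 of the 91 ribosomal protein genes (rows) in the 7 libraries (columns), with blue for a peak within 1 kb of a gene end, orange for a peak within 1 kb of an annotated start only and grey for neither. Among subunit genes Rpl17 is grey in 5 libraries, Rpl6 and Rpl12 in both E16 intestine and colon, and Rpl29 in 2, while 6 of the 12 paralog copies are grey in 6 or 7 libraries. Members without a start in the promoter table, Rpl17 and Rpl29 among them, could not be orange.

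Part of the gaps lay in the annotation. The gene bodies used can begin well before an annotated start of the same gene, so that this start lies more than 1 kb inside the body. Rps2 was the extreme case: it had no gene-end peak in any library, yet its annotated start, 1942 bp inside the body, was in a peak in all 7. The peaks over that start were 349, 256, 260, 541, 244, 150 and 312 bp wide, widest in KO stomach and narrowest in E16 intestine. The inner start of Rpl22, 1290 bp inside the body, was likewise covered in all 7, whereas the outer start lay between 1181 and 1249 bp from the nearest peak. Rps27l, a copy known as a p53 target, had a gene-end peak in E13 stomach only and a peak over the start, 1462 bp inside, in all 7. Rpl18 and Rpl19 have starts 2604 and 4707 bp inside the body too, but Rpl18 had a gene-end peak in all 7 libraries and thus no gap.

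Peaks within 1 kb of a gene end or of any annotated start were therefore counted as well, a choice made after the data were seen. Only the 70 members with a start in the promoter table could gain a peak in this way. All 7 libraries then held a peak at 70 of 91 members (76.9%, 67.3 to 84.4), against 47.2% of all protein-coding genes. The counts were 84 in E13 stomach (all genes 69.4%), 84 in forestomach (61.7%), 84 in hindstomach (66.4%) and 87 in KO stomach (72.6%). E13 intestine had 82 (66.7%), E16 intestine 79 (59.9%) and colon 76 (58.5%). Of the 77 subunit and stalk genes every one had such a peak in at least 1 library, 63 had it in all 7 (81.8%, 71.8 to 88.8), and KO stomach had it at all 77. The 3 stalk genes had it in all 7.

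The other parts of the translation machinery were alike or higher. By the same count, 64 of 78 mitochondrial ribosomal protein genes (82.1%, 72.1 to 89.0), which build the separate ribosome of the mitochondrion, had a peak in all 7 libraries. So did 38 of 40 translation factor genes (interval 83.5 to 98.6%) and 35 of 39 ribosome biogenesis genes (89.7%, 76.4 to 95.9). In colon 65 of 78 mitochondrial ribosomal protein genes had it (83.3%), beside 69 of 77 (89.6%) cytoplasmic subunit and stalk genes. Ribosomal protein genes thus stood above the level of all genes together with the rest of the machinery, with overlapping intervals among these lists, and the differences between lists were not tested.

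**Figure D2:**
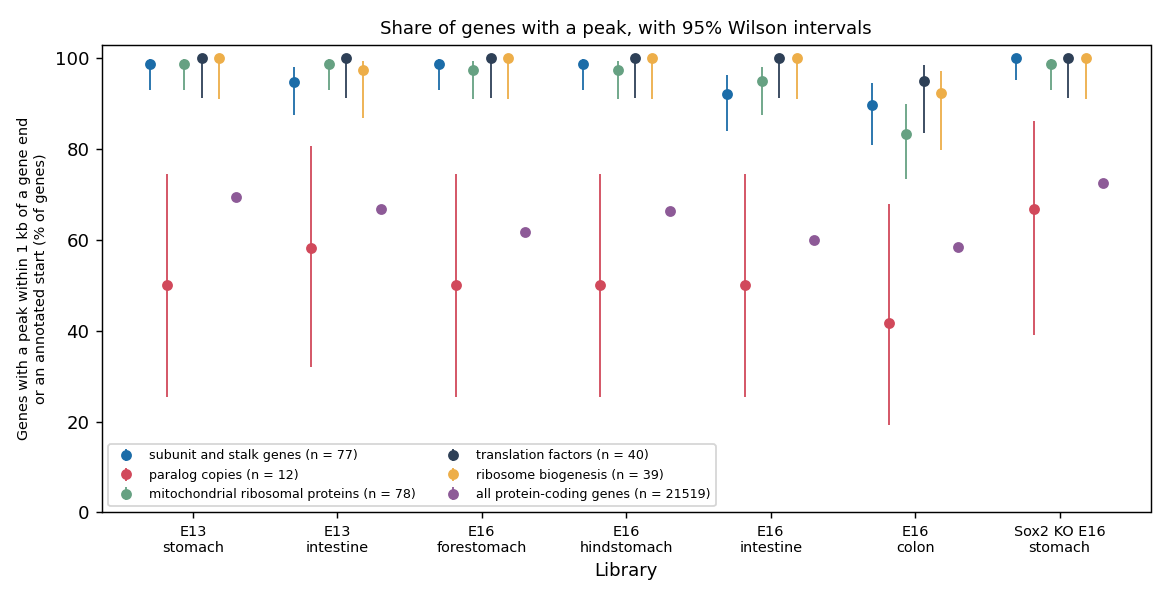
Share of genes with a peak within 1 kb of a gene end or annotated start, by library, for subunit and stalk genes, paralog copies and 4 other sets, with bars for 95% Wilson intervals. The 77 subunit and stalk genes lie between 89.6% in colon and all of them in KO stomach, the 12 copies between 41.7% and 66.7%, and all protein-coding genes between 58.5% and 72.6%.

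The small subunit genes had few gaps. A gene-end peak was present in all 7 libraries at 26 of 31 (83.9%, 67.4 to 92.9), and besides Rps2 the other 4 each missed 1 library. Rps15a missed E13 intestine, where the nearest peak lay 13.1 kb from the gene body. Rps15 missed colon, with the nearest peak 5.04 kb away. The stomach libraries had none of these 4 gaps. Rpsa had peaks over the start of 418, 293, 236, 542, 310, 177 and 200 bp. They were widest in KO stomach and E13 stomach and narrowest in E16 intestine. Rps3 had the start in a peak in 6 libraries, and in colon the nearest peak, 86 bp wide, lay 221 bp from it.

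The large subunit genes had more gaps, at 12 of 43, and 31 (72.1%, 57.3 to 83.3) had a gene-end peak in all 7 libraries. The interval overlaps that of the small subunit. Rpl6 and Rpl12, the second a protein at the base of the stalk, missed both E16 intestine and colon. The peak over the start of Rpl6 was 174 bp wide in E13 stomach, 174 in forestomach, 183 in hindstomach, 240 in KO stomach and 153 in E13 intestine. In E16 intestine and colon the nearest peaks to that start were 15.6 and 15.7 kb away. The peaks of Rpl6 were thus narrow where they were called. Rpl38, known for its part in translation of Hox mRNAs, lacked a gene-end peak in both libraries as well, but in E16 intestine a peak lay 464 bp from its start.

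Another 5 large subunit genes missed 1 library each, and 4 missed more. Rpl23 and Rpl32 missed E16 intestine, with nearest peaks 10.8 and 1.81 kb from the body. Rpl23a, which lies at the exit tunnel, missed colon (2.14 kb). Rpl8 and Rpl24 missed E13 intestine (1.94 and 2.07 kb), and Rpl29 missed E13 intestine (6.55 kb) and colon (1.70 kb). Rpl19 lacked a gene-end peak in forestomach and colon and Rpl22 in the 4 E16 libraries other than KO stomach, and both had a peak at an inner start there. Rpl17 was the gene with most gaps, since E13 intestine and KO stomach alone had a gene-end peak. A peak touched the body of Rpl17 in every library but forestomach, where the nearest lay 1.81 kb away, and no start of it was in the promoter table.

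The 12 paralog copies fell into 2 kinds. Rpl22l1, Rpl36al, Rpl34-ps1, Rps27l and Rpl3l had a peak at an end or start in all 7 libraries, and Rpl7l1 in all but colon, where the nearest peak was 21.4 kb from the body. The peaks over the start of Rpl22l1 were 468, 400, 550, 565, 472, 749 and 483 bp wide. Those at Rpl36al, whose end window also holds an end of Mgat2, were 540, 556, 573, 721, 317, 532 and 289 bp. Both copies thus had wider peaks than the stalk gene Rplp0, at 336, 315, 313, 340, 278, 349 and 226 bp, in each of the 7 libraries.

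The other 6 copies had no such peak called in 6 or 7 libraries. Rpl39l, Rpl31-ps12 and Rps27rt had no peak at an end or start in any library, and the nearest peak to the body of Rpl39l lay between 6.29 and 17.8 kb away. Rps27rt had a peak 3.20 to 3.33 kb from its body in each library. Rpl10l had one in E13 intestine only, 62 bp wide and 158 bp from the start, and Rpl32l and Rpl37rt had one in KO stomach only. The end windows of Rpl37rt also hold an end of Acads. Rpl3l counted as open in all 7 libraries only through its far end, which it shares with Msrb1. From the outer start of Rpl3l the nearest peak was 3266 to 3346 bp away.

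Gene ends were shared with a neighbour at other members too. The end windows of 32 members held an end of another protein-coding gene, and 25 of those had a gene-end peak in all 7 libraries. Of the 59 members with no other gene's end there, 41 did (69.5%). The share without shared ends was thus close to the 72.5% of the whole set. Rps23rg1 had gene-end peaks in all 7 libraries but its start in a peak in none.

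A stricter measure asked whether the start base itself lay inside a peak. It was open to 70 members with an entry in the promoter table and to 17273 protein-coding genes, and the outermost start was used. The start was in a peak in all 7 libraries at 38 members (54.3%, 42.7 to 65.4), against 25.7% of all genes. It was in none at 9 (12.9%, all genes 39.5%). Those 9 were the 6 copies without a peak in most libraries, Rpl3l, Rps23rg1 and Rpl22. By library the count was 57 in E13 stomach (all genes 51.3%), 56 in forestomach (41.3%), 60 in hindstomach (44.0%) and 59 in KO stomach (57.5%). E13 intestine had 50 (44.4%), E16 intestine 50 (36.7%) and colon 47 (32.0%). With any annotated start in place of the outermost, all 7 libraries covered 40 members.

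Peaks at these genes lay mostly at the start and seldom at the far end. With windows of 500 bp around either end of 66 members, the start had a peak at 61, 60, 60, 61, 60, 56 and 55 members. The far end had one at 4, 7, 7, 8, 4, 5 and 4. For all genes the start had a peak at between 50.7% in colon and 70.2% in KO stomach, and the far end at 4.84% to 7.73%.

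**Figure D3:**
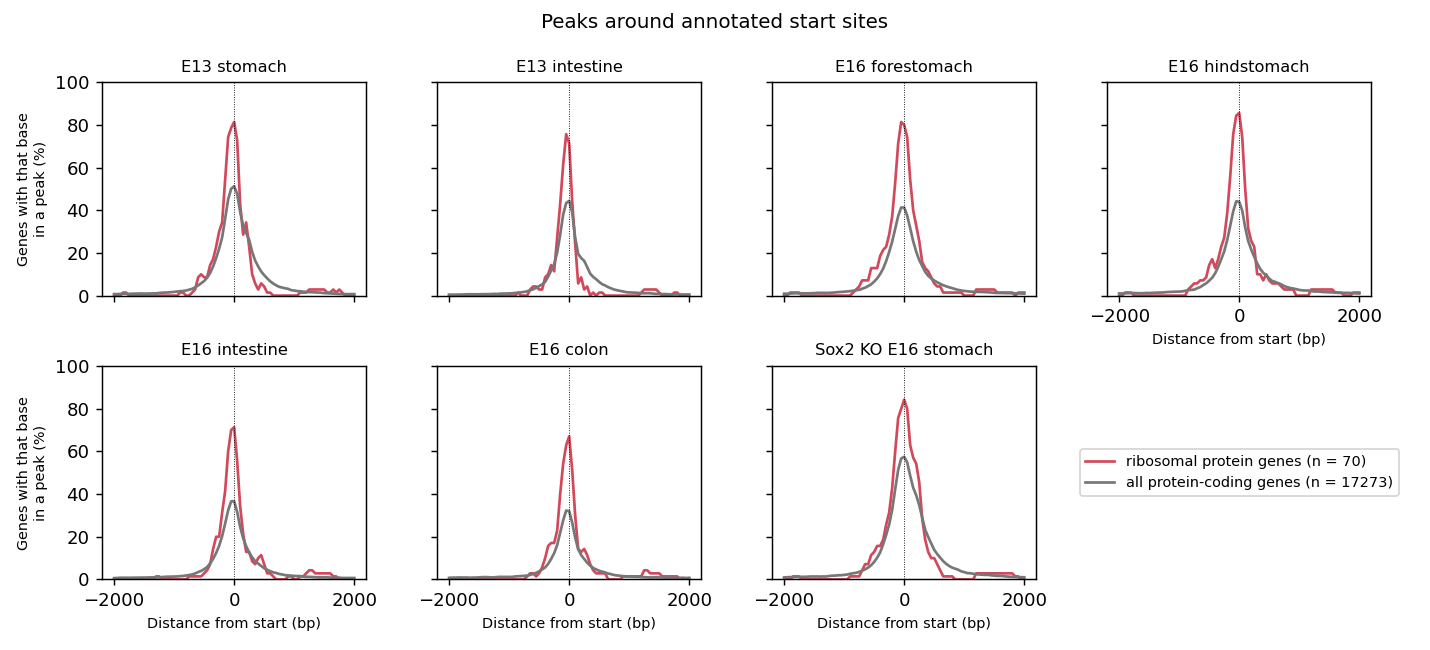
Share of genes (y axis, %) with the base at each distance from the start (x axis, bp, upstream to the left) inside a peak, for 70 ribosomal protein genes (red) and 17273 protein-coding genes (grey), 1 panel per library. The red curves are highest at or 50 bp before the start, between 67.1% in colon and 85.7% in hindstomach, above the grey curves there, and meet them farther out.

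The peaks over the start were narrower than those of other genes. In E13 stomach the median width was 323 bp at 57 members and 418 bp at all genes, and in colon 233 against 292 bp. KO stomach had the widest, at 442 against 504 bp. The median was below that of all genes in each of the 7 libraries. In E13 stomach the difference lay mainly downstream, since peaks reached a median of 177 bp upstream and 99 bp downstream of the start at members, and 186 and 178 bp at all genes. In KO stomach the reach downstream was larger than upstream in both sets, 227 against 187 bp at members and 252 against 208 bp at all genes. Over all gene-end peaks, which include those beside the start, the members' median was higher than that of all genes in each library (262 against 254 bp in E13 stomach and 220 against 184 bp in colon).

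Promoter letters were compared with openness over the 300 bases of the table (250 before the start and 50 from it on). The ratio of observed to expected CpG had a median of 0.85 at the 70 members and 0.59 at all genes. It was 0.93 at the 38 members with the start in a peak in all 7 libraries, 0.79 at the 23 with 1 to 6, and 0.41 at the 9 with none. All genes ran the same way, at 0.81, 0.74 and 0.20. The ranges overlapped, since the ratio reached 0.84 among the 9 starts in no peak (Rpl39l) and went down to 0.47 among those open in all 7. Rpl39l, whose start was in no peak, thus had a higher ratio than some starts open everywhere.

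**Figure D4:**
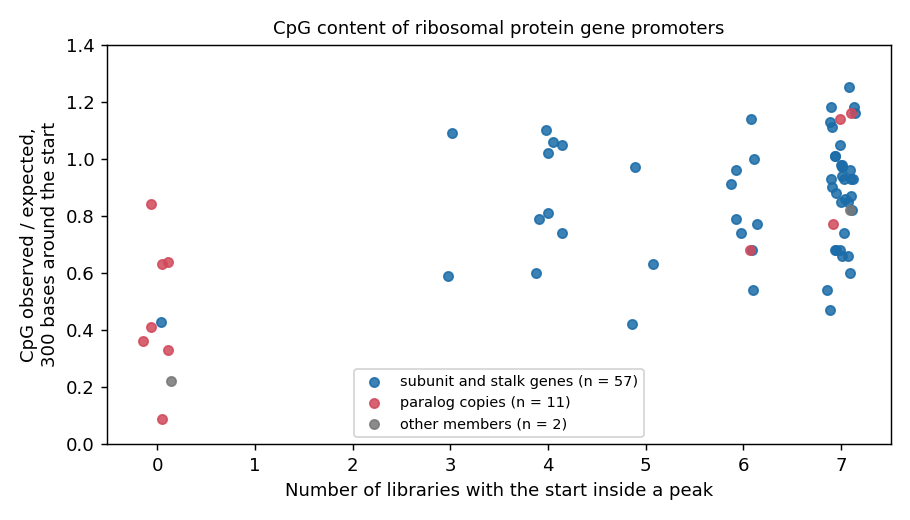
CpG observed over expected in the 300 bases around the start (y axis) against the number of libraries with the start in a peak (x axis, points spread sideways), for 70 ribosomal protein genes by kind. The 9 starts at 0 libraries have a median of 0.41 and are mostly paralog copies, and the 38 starts at 7 libraries have a median of 0.93.

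The letters of known promoter elements were counted in the same windows on both strands. CCGGAAG, the core of ETS family sites, was in 25 of 70 member windows (35.7%) and in 12.1% of all windows. AAGATGG, the YY1 core, was in 10 (14.3%) against 6.40%, and GGGCGG, the GC box of Sp1, in 40 (57.1%) against 46.9%. TATAAA was in 9 (12.9%) against 13.4%, and GCATGCGC, the NRF1 core, in 2 (2.86%) against 3.64%. On the sense strand within 20 bases of the start, CTTTC was in 20 members (28.6%, all genes 5.19%), CTTCC in 17 (24.3%, 9.82%) and CTTTT in 6 (8.57%, 3.71%), and at least 1 of these 3 TOP-like runs was in 35 of 70 members, against 17.5% of all genes. These runs can overlap each other, and CTTCC also overlaps the ETS letters read on the opposite strand. These counts are matches of letters in a window, not sites.

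The ETS letters did not separate starts open everywhere from those open in some libraries. They were in 15 of the 38 members open in all 7 libraries (39.5%), in 9 of the 23 open in 1 to 6 (39.1%) and in 1 of the 9 open in none (11.1%). TOP-like runs were in 19 of 38, 12 of 23 and 4 of 9. The GC box was in 26 (68.4%), 13 (56.5%) and 1 (11.1%). Motif shares over all genes split by openness were not computed, so these counts have no such level beside them. Most of the 9 starts in no peak were paralog copies, so being a copy and being in no peak cannot be told apart there.

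SnoRNA genes lay inside 30 of the 91 members (33.0%), among them Rpl4 with 5 and Rpl13a and Rpl7a with 4 each. Among all protein-coding genes 1.71% held one, and among those up to the length of the longest member 0.808%.

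Regions were then built by merging the overlapping peaks of the 7 lists, and each went to the protein-coding gene with the nearest body, up to 100 kb away. Of 326695 regions 430 fell to the members, with a median of 2 per member and 7 per protein-coding gene. At gene ends there were 132, of which all 7 libraries held 62 (47.0%), against 30.4% of such regions at all genes. Away from gene ends there were 298, of which all 7 held 9 (3.02%), against 2.44%, and 1 library alone held 155 (52.0%), against 56.2%. Regions at the members' gene ends were thus in all 7 libraries more often than those away from them, and the latter were near the level of all genes.

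**Figure D5:**
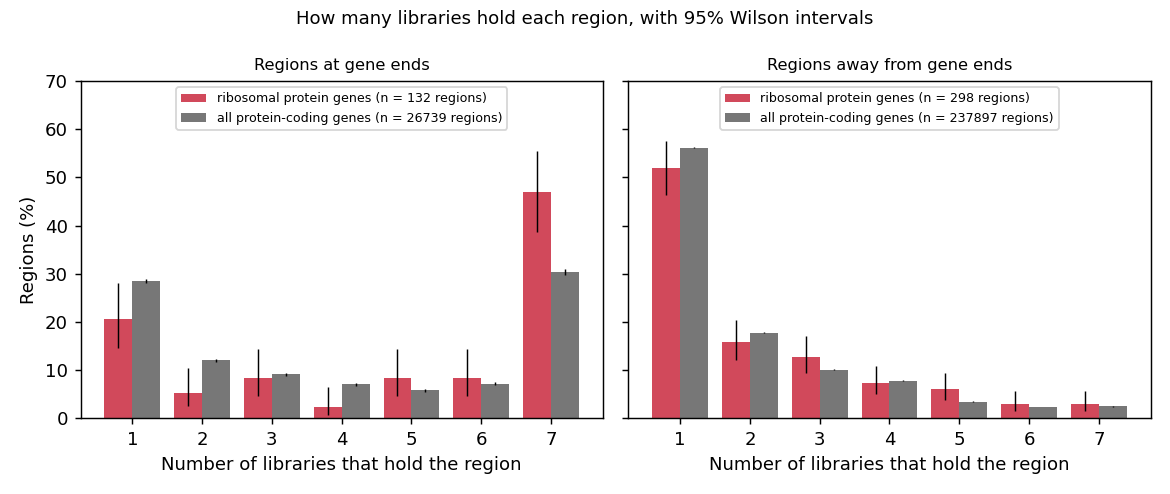
Share of regions (y axis, %) by the number of libraries that hold them (x axis), at gene ends (left) and away from them (right), for regions of ribosomal protein genes (red) and all protein-coding genes (grey), with bars for 95% Wilson intervals. At gene ends 47.0% of members' regions and 30.4% of all regions were in 7 libraries, and away from them 3.02% and 2.44%.

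Of the 9 regions away from gene ends that all 7 libraries held, 4 were the inner starts already described, at Rps2, Rpl22, Rpl18 and Rpl19. The region at Rpl18 was tied with Sphk2. Of the other 5, 3 lay 2.47, 26.9 and 28.2 kb from Rpl14, 1 lay 2.69 kb from Rpl12 and 1 lay 7.99 kb from Rpl21. The assignment to the nearest gene does not show that a region acts on that gene.

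Regions away from ends were unevenly spread, since 38 members had none and the 6 with most held 113 of the 298. Rpl14 had 27, of which the libraries held 7, 8, 13, 10, 9, 14 and 16, most in colon. Rplp1 had 18, with 8, 4, 10, 12, 7, 3 and 2, so that E16 intestine and colon held the fewest. Rpl38 had 19, Rps12 and Rpl34 17 each and Rps24 15. Rps12 had none in forestomach and 4 or 5 in each of the other libraries.

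By library, E13 stomach held 28.2% of the 298 regions (25.8% of such regions at all genes), E13 intestine 25.8% (20.1%) and forestomach 24.5% (24.9%). Hindstomach held 37.9% (32.6%), E16 intestine 31.5% (27.4%), colon 34.2% (39.0%) and KO stomach 38.6% (31.3%). The interval of the colon share, 29.1 to 39.8, includes the value of all genes, while those of E13 intestine (21.2 to 31.1) and KO stomach (33.2 to 44.2) do not. These intervals take the 298 regions as independent, although 6 members held 113 of them. They are therefore too narrow to show a difference from all genes, which was not tested.

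Pairs of libraries differed at few members, and the shares of all genes that differed are given beside each count. Between E13 stomach and E13 intestine, 5 members had a gene-end peak in stomach only (Rpl8, Rpl24, Rpl29, Rps15a and Rps27l; all genes 5.88%) and 2 in intestine only (Rpl17 and Rpl10l; 2.97%). Over members, forestomach and hindstomach were the most alike of the pairs listed, with none in forestomach only (2.48%) and Rpl19 in hindstomach only (7.11%). The Jaccard index was 0.988 over members and 0.852 over all genes. The squamous and the glandular part of the stomach thus shared 80 of 81 members. Over all genes the index was higher for KO against E13 stomach (0.899) and for E13 stomach against E13 intestine (0.871). Between hindstomach and E16 intestine, 6 were in hindstomach only (among them Rpl6, Rpl12, Rpl23, Rpl32 and Rpl38; 9.96%) and none in intestine only (3.46%).

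Intestine and colon at E16 differed at 9 members. In intestine only there were 6, among them Rpl19, Rpl23a, Rpl29, Rpl7l1 and Rps15 (all genes 8.02%), and in colon only 3, among them Rpl23 and Rpl32 (6.95%). From E13 to E16 intestine, 9 were in the E13 list only (11.3%), among them Rpl6, Rpl12 and Rpl22, and 4 in the E16 list only (Rpl8, Rpl24, Rpl29 and Rps15a; 4.62%). That pair had the lowest Jaccard index over members, 0.845 (all genes 0.763). Its index over regions away from gene ends was 0.213 (all genes 0.158).

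In the stomach 3 members were in E13 stomach and not in forestomach (Rpl19, Rpl22 and Rps27l; 10.7%) and none the other way (2.99%). Against hindstomach 2 were in E13 stomach only (Rpl22 and Rps27l; 7.35%) and none in hindstomach only (4.27%). KO stomach had 5 members that forestomach lacked (Rpl17, Rpl19, Rpl22, Rpl32l and Rpl37rt; 13.1%) and lacked none of those in forestomach (1.98%). Against hindstomach 4 were in KO stomach only (Rpl17, Rpl22, Rpl32l and Rpl37rt; 9.23%) and none in hindstomach only (2.75%). Against E13 stomach 3 were in KO stomach only (Rpl17, Rpl32l and Rpl37rt; 5.27%) and Rps27l in E13 stomach only (1.86%). These comparisons share libraries. No member with a gene-end peak in forestomach or hindstomach lacked it in KO stomach. In every pair and direction listed, the share of members was below that of all genes, though in several only slightly. The closest was E16 against E13 intestine (4.40% against 4.62%). Members in E13 stomach and not in E13 intestine were also close (5.49% against 5.88%). These differences from all genes were not tested.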

How the data were processed

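ATAC-seq peak lists of 7 libraries, 1 per group, were used. MACS2, Bowtie2, cutadapt and the build GRCm38/mm10 are named in the submitters' processing notes, while their versions and thresholds were not given in the sources used here. Every deposited file holds other values than a signal: chromosome, start and end of each peak, with no score or count, and starts were taken to count from 0. Peaks on chromosomes 1 to 19 and X were kept. Genes came from RefSeq GRCm38.p6, and 108 genes listed within the first 3 Mb of a chromosome, which is unsequenced, were left out; no member was among them. The gene table gives no strand, so starts and strands came from the promoter table. Overlap means at least 1 bp.

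The members and lists were chosen with earlier results of these data known. Named genes are members without a gene-end peak in some library, the copies, the 6 members with most regions away from ends and those holding regions in all 7 libraries. Rps2 and the second start of Rpl22 were added to the sequences after their values were seen. Alternatives were windows of 500 bp and 2 kb, 50% of the peak in the window, the widest peaks at equal list length, no shared ends, no copies, peaks up to 100 bp apart merged, assignment within 20 kb, and motifs before the start only. Interval code was tested on simulated data. Intervals used scipy 1.17.1, tables pandas 2.3.3 and numpy 2.4.6, and figures matplotlib 3.10.9, all under Python 3.11.15. Results of a few genes are not reported here by name.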

Additional observations from a re-analysis of the deposited data

How the results depend on the processing

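Of 174 values recomputed under alternatives, 148 stayed the same and 26 moved. A share or median width stayed the same if it lay within the 95% interval of the value reported. Motif counts were judged by a fixed limit on the fold difference between the counts. Without paralog copies, the share of members with a gene-end peak was 97.5% in E13 stomach, 94.9% in forestomach, 96.2% in hindstomach, 98.7% in KO stomach and 93.7% in E13 intestine. The share with the start in a peak was then 89.8% in E13 stomach, 88.1% in forestomach, 94.9% in hindstomach and 93.2% in KO stomach. A 2 kb window gave gene-end peaks at 90.1% in E16 intestine and 86.8% in colon, and with 500 bp 56.5% of gene-end regions were in all 7 libraries. With the widest peaks at equal list length, regions away from ends were held to 33.9% by E13 stomach, 34.8% by E13 intestine, 29.9% by forestomach and 27.1% by colon. Within 20 kb those shares were 32.0% in E13 intestine, 35.4% in forestomach and 46.9% in both hindstomach and KO stomach. Before the start only, 4 members had the YY1 core (5.71%, all genes 4.12%) and 0 the NRF1 core (all genes 3%). CTTTC was in 8 (11.4%, all genes 2.48%), CTTTT in 2 (2.86%, 1.71%) and CTTCC in 6 (8.57%, 4.86%). Any of the 3 TOP-like runs was in 14 of 70 members, against 8.75% of all genes. The YY1 share was thus near that of all genes there, while the share with a TOP-like run stayed above it. These differences were not tested. The fewer genes, peaks or bases counted are part of each alternative, and any further cause was not tested. The share of members with a gene-end peak in all 7 libraries lay between 67.0% and 79.1% over its alternatives; leaving out 1 library gave 72.5% to 76.9%. The counts with annotated starts and those without a library were added after the data were seen. Depth is unknown, so a peak that is not in a list was not called there and is not shown to be absent.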
